A study of Mus musculus with 106 samples.

Results

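Precursors of primordial germ cells (PGCs) were taken at the Late-Streak/0-Bud stage (LS/0B). Some of these cells had the transcript of Dppa3 (stella) and others did not, and the values below compare these sets. The study holds 106 single cells, of which 17 are LS/0B precursors. These were split by the linear array signal of the only Dppa3 probe set: 8 cells had a signal above the threshold and are called stella-positive, and 9 did not and are called stella-negative. The sets were therefore chosen by a value measured on the same arrays. All differences between them, in Dppa3 and in every other gene, are descriptions of these cells and carry no test. The stella-positive cell nearest to the threshold had a signal of 278 and the nearest stella-negative cell 31.1, so no cell lay close to it.

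PGCs are the founder cells of the germ line. In the mouse they are set aside from proximal epiblast during gastrulation, under BMP signals from neighbouring tissue, and the transcriptional regulators Blimp1 (Prdm1), Prdm14 and AP2 gamma (Tfap2c) are each needed for their formation. Specified germ cells put down the programme of the surrounding mesoderm, including Hox genes, and again have transcripts of the pluripotency network such as Sox2. Stella, a small nuclear protein deposited by the mother in the egg and made anew in germ cells, has long been used as the marker of this step.

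Each cell had its own array, hybridised with amplified cDNA, and all embryos were C57BL/6. The 17 cells are wild type, and were chosen for the transcripts of Blimp1 and Oct4 (Pou5f1) and screened for Blimp1 and fragilis (Ifitm3), so the presence of these transcripts is not a finding. For orientation, levels are also given for 7 wild-type precursors of the Early/Mid-Streak stage (E/MS), 8 wild-type PGCs of the Early/Mid-Bud stage (E/MB), which had been chosen for Blimp1 and stella, 4 wild-type Blimp1+ Hoxb1+ cells at E/MB, which had been chosen for Blimp1, Oct4 and Hoxb1, and 20 LS/0B cells from Blimp1 (-/-) embryos, chosen for the transcript of the null allele and Oct4. The labels number the cells but name no embryo or litter, so the 17 cells count as 1 sample, and no p-value or standard error was computed. Signals are given as log2 of the array signal after values under a background floor of 70.2 were raised to it, so 6.13 is the lowest value possible. SDs are over cells. A transcript counted as detected where its signal passed a limit set by background probe sets on that array, between 94.9 and 146 in these 17 cells.

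Several features of the cells moved with the split. Xist, the RNA that coats the inactive X, was detected in 5 of 8 stella-positive and 3 of 9 stella-negative cells. A Y-linked transcript was detected in 3 stella-positive and 5 stella-negative cells, all without Xist. Cells with replicate numbers of 14 to 24 made up 6 of the 8 stella-positive and 3 of the 9 stella-negative cells. Detected probe sets numbered from 10626 to 13643 (median 12640.5) in stella-positive and from 8935 to 13452 (median 11713) in stella-negative cells, and the hybridisation controls, spiked in before the array step, averaged 9.67 ± 0.17 (SD, n = 8) and 9.65 ± 0.22 (SD, n = 9) in log2. Ppp2cb, a phosphatase subunit, stood on a list of 4 genes taken to follow sets of arrays, although no label names such sets. It was detected in 5 stella-positive cells and 1 stella-negative cell. Of the other members Senp3 was detected in 5 and 3 cells, Naa20 in 2 and 4 and Abca4 in 8 and 9. Germ cell state, cell sex and replicate block cannot be told apart over all 17 cells, and values within the 8 cells with Xist and within the 9 cells without it are given where they differed by more than 1 log2 unit. Replicate 21 stood apart among the stella-negative cells. It had no Dppa3, but also no Hoxb1, and had all 12 of the genes named below for the largest differences towards stella-positive cells. Values without it are given where it changed the count of a list or moved a difference by 0.5 or more.

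The markers of the split came in 4 combinations. Dppa3 signal in the stella-positive cells was 278 (replicate 3), 378 (replicate 16), 625 (replicate 2), 941 (replicate 22), 1375 (replicate 24), 1598 (replicate 19), 2169 (replicate 20) and 2773 (replicate 18). The stella-negative cells lay between 18.99 and 31.1, below the detection limit of every array. Hoxb1, a homeobox gene of posterior mesoderm, had signals of 1858, 792 and 349 in replicates 3, 16 and 2 and lay below the detection limit in the other 5 stella-positive cells. These 3 cells with both transcripts were the ones with the lowest Dppa3 signal, and none of them had Xist, whereas all 5 cells with Dppa3 alone had it. In stella-negative cells Hoxb1 had signals of 418 to 1748 in 8 cells and of 7.30 in replicate 21. Sox2, a core transcription factor of pluripotent cells, had signals of 965 to 3047 in 6 stella-positive cells and of 1.38 and 3.73 in replicates 3 and 16. It was 877 in replicate 21 and at most 9.81 in the other 8 stella-negative cells. Every cell with Dppa3 alone had Sox2, and of the 11 cells with Hoxb1 only replicate 2 had it.

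**Figure D1:**
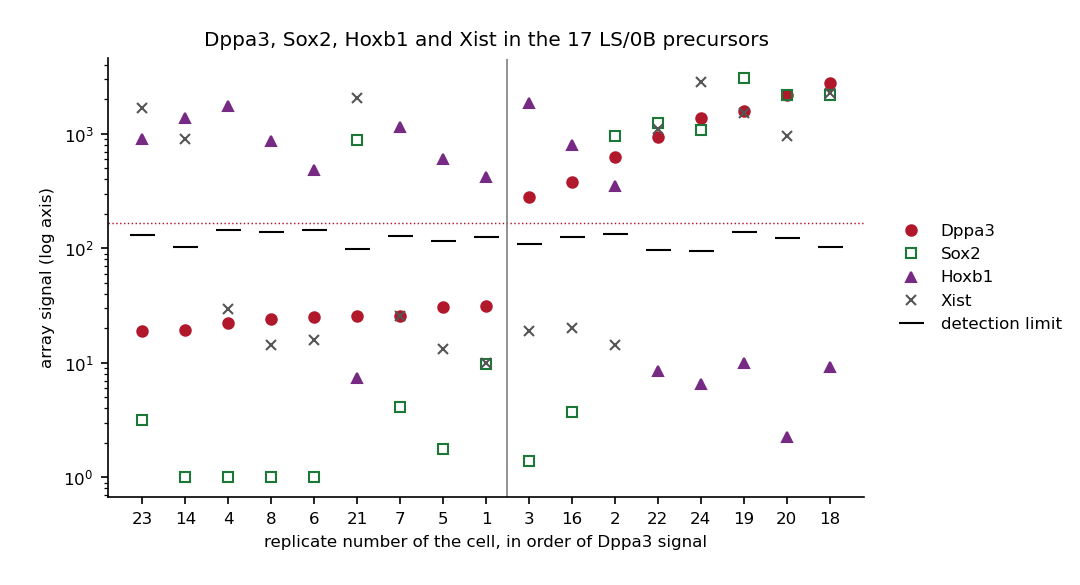
Array signal of Dppa3, Sox2, Hoxb1 and Xist (log axis) in each of the 17 LS/0B precursors, in order of Dppa3 signal; the vertical line separates 9 stella-negative from 8 stella-positive cells, the dotted line marks the threshold that split them, and black ticks mark each array's detection limit. The 3 stella-positive cells with the lowest Dppa3 (278 to 625) have Hoxb1 and no Xist, the other 5 have Sox2 and Xist and no Hoxb1, and replicate 21 is the stella-negative cell with Sox2 and without Hoxb1.

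The promoters of Sox2 and Hoxb1, the genes that went with and against Dppa3, and of Gja1, whose levels were separate between the sets, are shown from the RefSeq table for GRCm38.p6. Each runs from 250 bases before to 50 after the start of the gene and is 300 bases long, on the plus strand. They lie at chr3:34649745-34650044 (Sox2), chr11:96365508-96365807 (Hoxb1) and chr10:56377050-56377349 (Gja1). Capitals mark matches, on either strand, to TATAAA (bound by the factor TBP), to CCAAT (bound by the factor NF-Y), to GGGCGG (a GC box) and to ATGCAAAT (the octamer bound by POU factors such as Oct4). None of these matches overlapped another.
Sox2: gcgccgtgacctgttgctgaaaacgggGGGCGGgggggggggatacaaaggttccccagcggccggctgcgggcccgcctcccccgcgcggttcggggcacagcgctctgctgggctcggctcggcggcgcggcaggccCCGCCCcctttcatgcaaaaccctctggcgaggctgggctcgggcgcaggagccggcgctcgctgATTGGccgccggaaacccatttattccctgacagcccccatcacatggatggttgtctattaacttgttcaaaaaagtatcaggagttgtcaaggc
Hoxb1: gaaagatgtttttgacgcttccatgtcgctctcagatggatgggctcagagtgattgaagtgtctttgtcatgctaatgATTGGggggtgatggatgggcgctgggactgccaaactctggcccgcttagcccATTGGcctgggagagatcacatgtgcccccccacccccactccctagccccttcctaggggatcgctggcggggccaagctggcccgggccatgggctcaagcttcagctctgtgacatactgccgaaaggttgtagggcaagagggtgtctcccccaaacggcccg
Gja1: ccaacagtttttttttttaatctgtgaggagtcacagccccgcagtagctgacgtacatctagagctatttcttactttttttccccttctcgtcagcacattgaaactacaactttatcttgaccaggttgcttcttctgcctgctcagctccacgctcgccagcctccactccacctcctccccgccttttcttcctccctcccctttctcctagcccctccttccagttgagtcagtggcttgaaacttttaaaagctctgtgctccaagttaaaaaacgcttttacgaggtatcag
Sox2 held GC boxes at -223 and -111 and 1 CCAAT on the minus strand at -46, counted from the start. Hoxb1 held CCAAT on the minus strand at -171 and -117, and Gja1 held none of the 4 motifs. Of 32851 promoters in the table, 37.4% held CCAAT, 35.7% GGGCGG, 13.6% TATAAA and 1.74% ATGCAAAT. GC content was 66.3% for Sox2, 59.3% for Hoxb1 and 47.7% for Gja1.

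Of 18192 genes other than Dppa3, 749 (4.12%) differed by 1 log2 unit or more towards stella-positive cells and 312 (1.72%) towards stella-negative cells; such genes are called higher or lower from here on. Of these differences 70.6% were therefore higher, or 58.2% when each cell was scaled to the same median of broadly detected genes, which moved the median difference of those genes from 0.05 to -0.08. Without replicate 21 the counts were 811 and 375. For most genes the levels of the sets overlapped. In 3 genes (0.0165%) the lowest stella-positive cell lay above the highest stella-negative cell, and in 1 gene (0.0055%) the order was opposite.

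**Figure D2:**
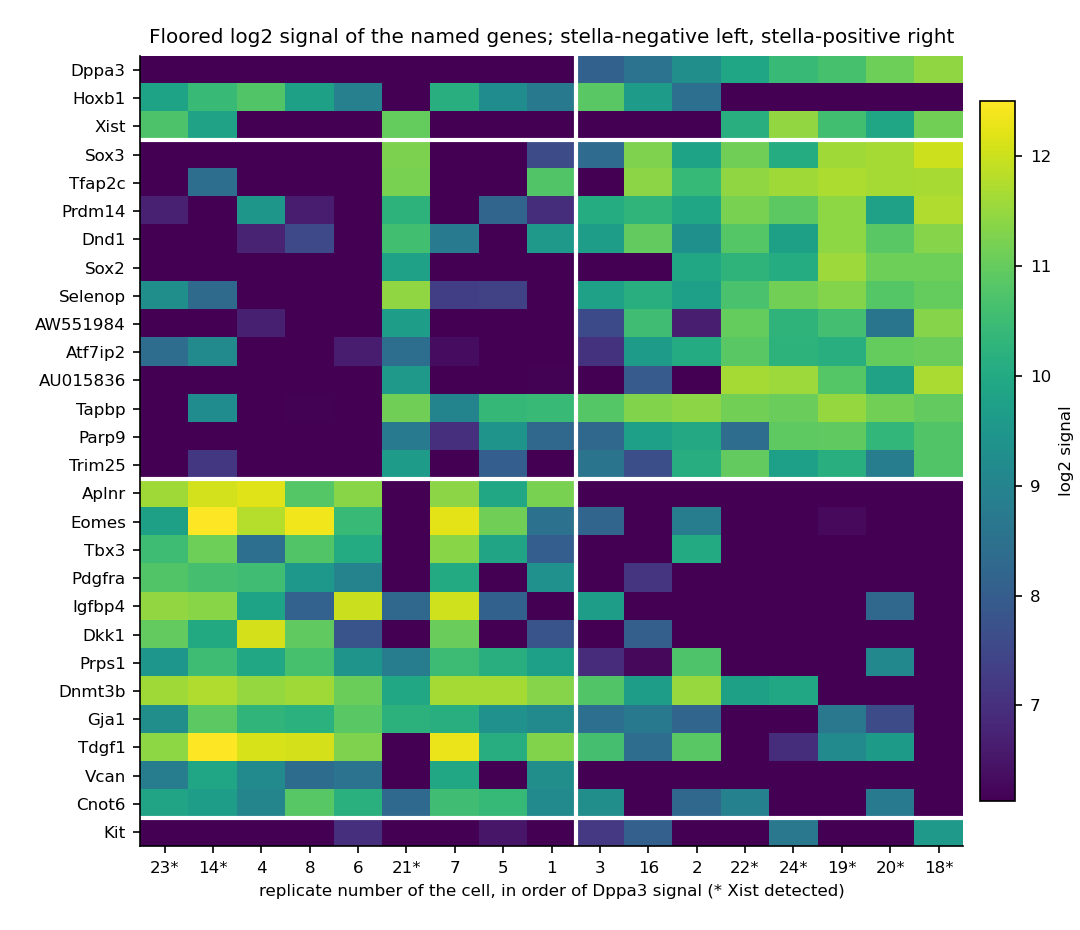
Floored log2 signal (colour) of Dppa3, Hoxb1, Xist, the 12 genes most higher and the 12 most lower in stella-positive cells, and Kit, in each of the 17 cells in order of Dppa3 signal; asterisks mark cells with Xist. The genes were chosen for their difference between these sets; replicate 21, a stella-negative cell, has all 12 of the higher genes and 5 of the 12 lower genes.

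Many germ cell genes were higher in stella-positive cells. Of 11 measured members of the germ cell specification list, 6 were higher and 0 lower, and their median difference was 1.72. Of all genes 4.12% were higher, by the same limit of 1 log2 unit, and the median was 0.00. Without Prdm1 and Ifitm3, by which cells were chosen or screened, the median was 0.98 with 4 of 9 higher. The members were on the list because earlier results of these cells were known.

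Prdm14, a transcriptional regulator of germ cell formation, ran from 9.78 to 11.74 (median 10.59) in stella-positive cells and from 6.13 to 10.26 (median 6.70) in stella-negative cells. The difference was 3.25, or 3.61 without replicate 21. It was detected in 8 of 8 stella-positive cells and in 3 stella-negative cells, replicates 4, 5 and 21. Tfap2c ranged from 6.13 to 11.72 (median 11.52) and from 6.13 to 11.21 (median 6.13), a difference of 3.28. Among stella-positive cells only replicate 3, the cell with the least Dppa3, lacked it, and among stella-negative cells replicates 1, 14 and 21 had it. Dnd1, an RNA-binding protein that germ cells need to survive, ranged from 9.33 to 11.42 (median 10.84) and from 6.13 to 10.57 (median 6.73), a difference of 3.0. Here 5 of 8 stella-positive cells lay above the highest stella-negative cell, which was replicate 21.

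The other members differed less. Prdm1 was detected in all 8 stella-positive cells and in 8 of 9 stella-negative cells. Its level was higher by 1.97, at 8.26 to 11.15 (median 10.73) against 6.67 to 10.67 (median 8.29). Ifitm3, an interferon-inducible membrane protein, was at 11.78 to 12.80 (median 12.45) and 7.41 to 12.21 (median 9.92), a difference of 2.37, with 6 of 8 stella-positive cells above all stella-negative cells. Its relatives Ifitm1 (0.58) and Ifitm2 (0.65) were detected in all 17 cells. Alpl, the alkaline phosphatase by which germ cells are stained, was detected in 8 and 5 cells and was higher by 1.72, with 2.55 in cells with Xist and 0.87 in cells without. Lin28a, an RNA-binding inhibitor of let-7 processing, differed by 0.37.

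Kit, the receptor for stem cell factor, differed from these genes in its level at the next stage. In stella-positive cells it was at 6.13 to 9.56 (median 6.65), detected in 4 of 8, and in stella-negative cells at 6.13 to 6.98 (median 6.13), detected in 0 of 9, a difference of 0.98 that was 0.66 without replicate 18. In E/MB PGCs it averaged 10.25 ± 1.17 (SD, n = 8). Prdm14 averaged 10.66 ± 0.75 (n = 8) in stella-positive cells and 10.84 ± 0.47 (n = 8) in these PGCs, and Dnd1 10.52 ± 0.81 and 10.92 ± 0.63. Cxcr4, a chemokine receptor of migrating germ cells, was detected in 0 of 17 cells.

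Genes of the pluripotency network split. Of 19 members 5 were higher and 2 lower, against 4.12% and 1.72% of all genes, and the median was 0.12. Sox2 was higher by 3.0, at 6.13 to 11.57 (median 10.18) against 6.13 to 9.78 (median 6.13), and by 3.41 without replicate 21. Nanog was detected in 8 and 7 cells, at 8.49 to 11.09 (median 10.15) and 6.13 to 10.49 (median 8.11), a difference of 1.85. Klf5, a Kruppel-like factor of pluripotent cells, was detected in 8 and 3 cells and was higher by 2.47. Dppa5a (1.71) and Klf2 (1.12, or 0.93 without replicate 18, with 1.52 in cells with Xist and 0.18 in cells without) were the other higher members. Oct4 differed by 0.82 and Sall4 by 0.07, both detected in all 17 cells. Tbx3 and Tdgf1 went the other way. Tbx3, a T-box factor with roles both in naive pluripotency and in mesoderm, was detected in 8 of 9 stella-negative cells and in replicate 2 alone among stella-positive cells, a difference of -2.97. Tdgf1, the Nodal co-receptor Cripto, was at 6.13 to 10.86 (median 8.79) in stella-positive and 6.13 to 12.49 (median 11.41) in stella-negative cells, a difference of -2.53, and the stella-negative cell without it was replicate 21. Without that cell the difference was -3.14.

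Of 12 genes of the primed epiblast, 2 were higher and 2 lower, against 4.12% and 1.72% of all genes, and the median was 0.17. Dnmt3b, which methylates DNA de novo, was detected in 9 of 9 stella-negative cells at 9.92 to 11.73 (median 11.59) and in 5 of 8 stella-positive cells at 6.13 to 11.51 (median 9.71), a difference of -2.58. The difference was -3.46 in cells with Xist and -0.81 in cells without. Car4, a carbonic anhydrase, differed by -1.01 over all cells, but by -2.25 in cells with Xist and 1.01 in cells without, and by -1.52 without replicate 2 and -0.72 without replicate 5. Gdf3, a ligand of the TGF-beta family, was detected in 5 stella-positive cells and 0 stella-negative cells, and was at least 1.55-fold higher, with a difference of 2.52 in cells with Xist and 0.17 in cells without. Slc7a3, an amino acid transporter, differed by 1.16, or 0.77 without replicate 20. Among genes of DNA methylation Tet1, which oxidises methylcytosine, was higher by 1.33, with 1.99 in cells with Xist and -0.54 in cells without, and Dnmt1 (0.09) and Uhrf1 (-0.36), the maintenance methyltransferase and its partner, were detected in all 17 cells. Uhrf1 differed by -1 in cells with Xist and 0.70 in cells without.

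Sox3 had the largest positive difference among genes that 75% or more of the higher set had. It is an X-linked transcription factor related to Sox2 and stood on the list of the neural plate, where it was the only one of 8 members past 1 log2 unit. In stella-positive cells it was at 8.36 to 12.01 (median 11.19), detected in 8 of 8, and in stella-negative cells at 6.13 to 11.23 (median 6.13), detected in replicates 1 and 21 only. The difference of 3.87 was 4.42 without replicate 21, and was 3.45 in cells with Xist and 3.44 in cells without. Another probe set of Sox3 was detected in no cell, and with the mean of probe sets the difference was 1.94.

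Of 10 epithelial genes 5 were higher in stella-positive cells and 0 lower, with a median of 1.20, against 4.12% and 1.72% of all genes. Krt8 (0.48), Dsp (0.74), Krt19 (0.74), Cldn6 (0.76) and Ocln, which no cell had, did not pass. Cldn7, a tight junction protein, was detected in 8 stella-positive cells at 8.55 to 10.80 (median 9.75) and in 3 stella-negative cells at 6.13 to 9.69 (median 6.13), a difference of 2.67 (3.33 with Xist, 2.0 without). Esrp1, a splicing regulator of epithelial cells, differed by 2.53, the keratin Krt18 by 2.51 and the adhesion molecule Epcam by 2.10. E-cadherin (Cdh1) was detected in 8 of 8 and 8 of 9 cells, at 10.15 to 11.40 (median 11.09) and 6.13 to 11.15 (median 9.60), a difference of 1.65. The mean of the list in a cell lay between 9.19 and 9.91 in stella-positive cells and between 7.11 and 8.91 in stella-negative cells, so the sets did not overlap in it. This was 1 of 23 lists, which were chosen with earlier results of these data known. The nearest stella-negative cells were replicates 1, 5 and 21, with list means of 8.91, 8.88 and 8.87.

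Of 10 mesenchymal genes 4 were lower and 1 higher, with a median of -0.79, against 1.72% and 4.12% of all genes. The other 5 did not pass, of which Zeb2 (-0.94) differed by -1.10 without replicate 21. Pdgfra, a growth factor receptor of mesoderm, was at 6.13 in 7 of 8 stella-positive cells and at 7.10 in replicate 16, and at 6.13 to 10.78 (median 9.52) in stella-negative cells, a difference of -2.87. Other Pdgfra probe sets, each detected in 1 cell, differed by -0.14 and -0.26. Cdh11 (-2.48) and Snai1 (-2.07), a mesenchymal cadherin and a repressor of E-cadherin, were each detected in 1 stella-positive cell and in 6 and 5 stella-negative cells. Cdh2, N-cadherin, differed by -1.86. The exception was the intermediate filament gene Vim, which was detected in 8 and 8 cells and higher by 1.4, or 0.90 without replicate 4, with 0.32 in cells with Xist and 1.53 in cells without.

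**Figure D3:**
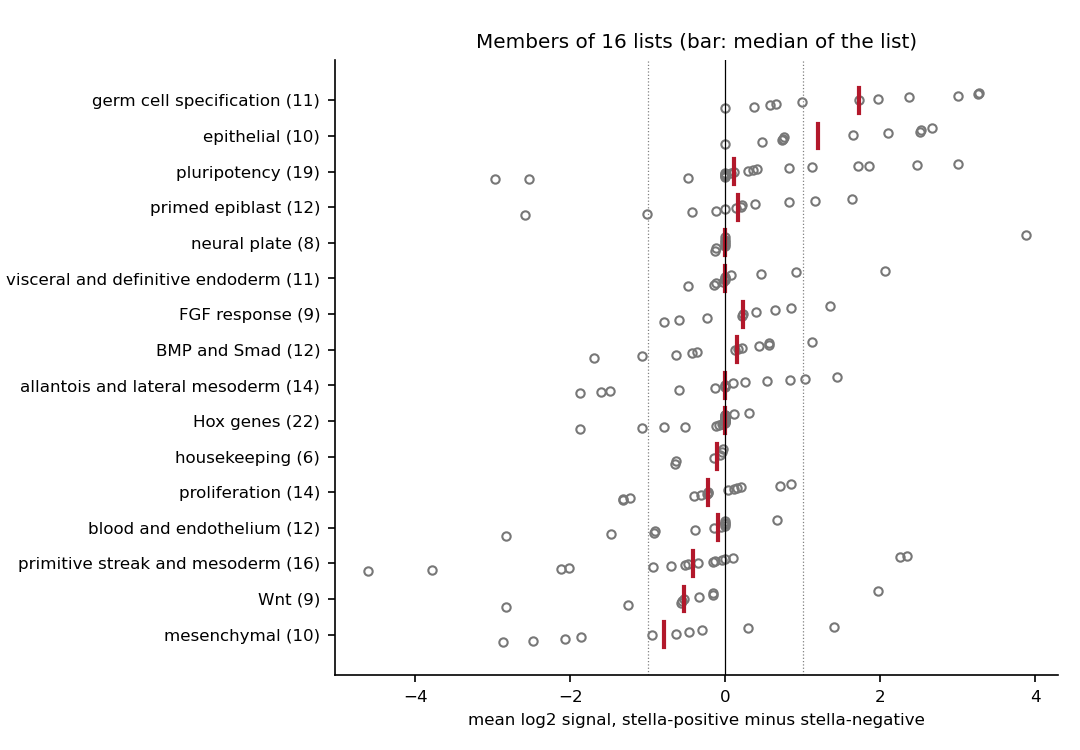
Difference in mean log2 signal, stella-positive minus stella-negative, for each measured member (circle) of 16 gene lists, with the number of members in brackets, the median of each list as a bar, and dotted lines at a difference of 1 in either direction. Germ cell (median 1.72) and epithelial (1.20) members lie mostly to the right, mesenchymal members (-0.79) mostly to the left, and Hox genes (0.00) mostly at 0.

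Genes of the primitive streak and early mesoderm had a median of -0.41, with 4 of 16 lower and 2 higher, or 5 lower without replicate 21, when Mesp2 differed by -1.08. Of all genes 1.72% were lower and 4.12% higher. Over all cells Mesp2 differed by -0.93 (-1.88 with Xist, -0.23 without). Aplnr, the receptor for apelin peptides in migrating mesoderm, had the largest negative difference among genes that 75% or more of the higher set had. It was detected in 0 of 8 stella-positive cells and in 8 of 9 stella-negative cells at up to 12.19 (median 11.37), and was at least 10.01-fold lower in stella-positive cells. The stella-negative cell without it was replicate 21. Its difference was -4.61 over all cells, -5.19 without replicate 21, -3.80 in cells with Xist and -5.02 in cells without. Eomes, a T-box factor of streak and mesendoderm, was at 6.13 to 8.80 (median 6.13) in stella-positive cells, detected in replicates 2 and 3, and at 6.13 to 12.49 (median 11.11) in stella-negative cells, detected in all but replicate 21. The difference was -3.79, or -4.34 without replicate 21. Mesp1, a factor of early cardiac and other mesoderm, was still detected in 7 of 8 stella-positive cells, at 6.49 to 12.19 (median 9.97) against 9.02 to 12.92 (median 12), a difference of -2.12 (-2.80 with Xist, -0.99 without). Mixl1, a homeobox factor of the streak, was detected in 8 of 8 stella-positive cells at 6.74 to 10.25 (median 8.42) and was lower by a difference of -2.01, or -2.55 without replicate 21.

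Against these stood Cdx2 and Fgf8. Cdx2, a homeobox factor of the posterior embryo and of trophoblast, was detected in 8 and 6 cells, at 8.52 to 11.19 (median 10.48) and 6.13 to 11 (median 8.01), a difference of 2.34. Fgf8, a growth factor of the streak, was detected in 8 and 3 cells and was higher by 2.26. Evx1, a homeobox factor of the posterior streak, was detected in all 17 cells and differed by -0.70 (-1.22 with Xist, -0.17 without).

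Of 22 Hox genes 0 were higher and 2 lower, against 4.12% and 1.72% of all genes. The median was 0.00, but 11 of the 22 were detected in no cell, which holds it near 0. Over members detected in at least 50% of cells it was -0.52. Of all 18192 genes 11841 were detected in some cell. The 2 lower members were Hoxb1 and its neighbour Hoxb2. Hoxb1 was at 6.13 to 10.86 (median 6.13) in stella-positive and 6.13 to 10.77 (median 9.76) in stella-negative cells, a difference of -1.87. Within cells with Xist the difference was -2.66, and within cells without Xist it was 0.06, since the 3 stella-positive and 6 stella-negative cells there all had the transcript. Hoxb2 differed by -1.07, or -0.84 without replicate 4. Hoxb3 was detected in all 17 cells and differed by -0.52.

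Of 14 genes of allantois and lateral mesoderm, 2 were higher and 3 lower, against 4.12% and 1.72% of all genes, with a median of 0.00. Gata6 (-1.88), Gata4 (-1.60) and Foxf1 (-1.49, with -2.24 in cells with Xist and -1.21 in cells without), transcription factors of mesoderm and endoderm, were detected in 1, 0 and 1 stella-positive cells and in 6, 5 and 5 stella-negative cells. Bmp4, a growth factor that induces germ cells and is made by extraembryonic tissue, was higher by 1.45 and detected in 8 and 7 cells, and Msx1, a homeobox target of BMP signals, was higher by 1.03, or 0.62 without replicate 6, with 0.18 in cells with Xist and 1.47 in cells without. Of 12 genes of blood and endothelium 0 were higher and 2 lower: Kdr, a VEGF receptor of early mesoderm, was detected in 0 stella-positive and 6 stella-negative cells and was at least 1.47-fold lower, and Gata2 differed by -1.47.

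Signalling genes are given list by list, beside shares of 4.12% higher and 1.72% lower over all genes. In the BMP and Smad list 1 of 12 was higher and 2 lower, the latter being the BMP signal transducers Smad1 (-1.70) and Smad5 (-1.08, or -0.76 without replicate 20). The higher member was Id4 (1.11, or 0.64 without replicate 18, with 1.73 in cells with Xist and 0.14 in cells without). The BMP targets Id1 (0.43) and Id3 (-0.63) did not pass, and differed by -0.56 and -1.18 with Xist and by 1.43 and 0.07 without. In the Wnt list 1 of 9 was higher and 2 lower. Dkk1, a secreted Wnt inhibitor, was at 6.13 to 8.06 (median 6.13) in stella-positive cells, detected in replicate 16 alone, and at 6.13 to 12.08 (median 9.99) in stella-negative cells, a difference of -2.83. Sp5, a Wnt target, differed by -1.25 (-0.95 without replicate 8), with -2.68 in cells with Xist and 0.45 in cells without, and the Wnt agonist Rspo3 was higher by 1.98. In the FGF response list 1 of 9 was higher, Spry1 (1.35), an antagonist of receptor signalling. Without replicate 21 there were 2 higher, with Etv5 (1.1), and 1 lower, the receptor Fgfr1 (-1.09). Over all cells Fgfr1 differed by -0.78 (-1.26 with Xist, 0.04 without). Of 13 immediate early genes 3 were lower: Myc (-1.59), Fosb (-1.12, or -0.85 without replicate 8) and Egr1 (-1.10, or -0.71 without replicate 19, with -1.95 in cells with Xist and -0.44 in cells without). Without replicate 21 this list had 1 higher member, Fos (1.14), and 2 lower, Myc and Junb (-1.08). Over all cells Fos differed by 0.87 (0.37 with Xist, 1.70 without).

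Proliferation genes other than Cdc6 and Gins2 were detected in all 17 cells. On this list there were 0 of 14 members higher, 3 lower and a median of -0.22, beside 4.12% higher and 1.72% lower over all genes. The lower members were the G1 cyclins Ccnd1 (-1.32) and Ccnd2 (-1.23, or -0.98 without replicate 18) and the replication factor Gins2 (-1.32, with -1.44 in cells with Xist and -0.33 in cells without). Cdc6, which loads the replication helicase, differed by 0.84 (0.03 with Xist, 1.63 without) and by 1.08 without replicate 21, when it was higher. Cdk1 (0.21) and Top2a (0.16), of mitosis and DNA topology, differed little. Of 7 cell cycle inhibitors Cdkn1c was higher by 1.32. Of 11 genes of histone methylation 2 were higher, the methyltransferase Setdb1 (1.32) and the demethylase Kdm4c (1.48), and 0 lower. Of 6 housekeeping genes 0 passed 1 log2 unit, with a median of -0.10.

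Markers of other cell types were detected in part, and their counts stand beside 4.12% higher and 1.72% lower over all genes. Of 11 endoderm markers Sox17, which germ cells also express, was the only one past 1 log2 unit: it was detected in 6 and 2 cells and higher by 2.06 (2.47 with Xist, 0.89 without). Afp, Foxa1, Foxa2 and Hnf4a were detected in 0 of 17 cells, and the other 7 in some: Apoa4 in 6 stella-positive and 8 stella-negative cells, Ttr and Rbp4 each in 3 and 1, Apoa1 in 1 and 3. Ttr differed by 0.91, with 1.35 in cells with Xist and 0.00 in cells without. The list's mean in a cell was 6.30 to 7.05 in stella-positive and 6.19 to 6.90 in stella-negative cells. Of 5 measured trophoblast markers Plac1 was higher by 1.19 (0.96 without replicate 16), Elf5 and Tpbpa were detected in no cell, Esx1 in all 17 and Ascl2 in 7 and 7, and list means were 6.62 to 7.16 and 6.62 to 6.89. Among blood markers Gata1, Hbb-bh1, Hba-x and Pecam1 were detected in no cell and the other 8 in some, Lmo2 in 3 and 6 and Etv2 in 4 and 4, and list means were 6.15 to 6.70 and 6.44 to 8.26, the highest being replicate 6. Lmo2 differed by -0.92 (-0.64 with Xist, -1.70 without) and Etv2 by -0.90 (0.06 with Xist, -2.25 without).

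Other genes named for the size of their difference stood on no list. Tapbp, tapasin of antigen loading, was detected in 8 and 5 cells, at 10.82 to 11.49 (median 11.15) and 6.13 to 11.12 (median 9), a difference of 2.86. Parp9 (2.80, with 3.28 in cells with Xist and 2.14 in cells without), a member of the ADP-ribosyltransferase family, and Trim25 (2.75), a ubiquitin ligase of antiviral signalling, were each detected in 8 stella-positive and 3 stella-negative cells. Selenop, a secreted carrier of selenium, was higher by 2.99, although the highest of all 17 cells was replicate 21 at 11.45. Its difference was 1.30 in cells with Xist and 3.35 in cells without. AW551984 (2.98) was detected in 7 and 1 cells, and AU015836 (2.95) in 6 and 1. AW551984 differed by 3.04 in cells with Xist and 2.04 in cells without. AU015836 differed by 3.83 in cells with Xist and by 0.60 in cells without. Atf7ip2, a nuclear factor that binds Setdb1, was higher by 2.96, but another probe set of the gene, detected in 1 cell, differed by -0.13.

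The 3 genes whose stella-positive cells all lay above the stella-negative cells were Pced1b, C77080 and Mgrn1. Pced1b was at 8.72 to 9.78 (median 9.19) against 6.13 to 8.04 (median 6.68), a difference of 2.37. C77080 was detected in 8 of 8 and 0 of 9 cells and was at least 2.72-fold higher. Its lowest stella-positive signal was 110 (replicate 22) and its highest stella-negative signal 81 (replicate 7), both near the floor. Its difference of 2.25 was 1.51 with the floor at the 95th percentile of background. Mgrn1, a ubiquitin ligase, was at 8.94 to 10.09 (median 9.39) against 6.30 to 8.86 (median 8.18), a difference of 1.51. The opposite order was found in Gja1, a connexin of gap junctions. It was at 9.16 to 10.88 (median 10.20) in stella-negative cells, all 9 of which had it, and at 6.13 to 8.71 (median 7.92) in stella-positive cells, of which 5 had it. The difference was -2.53 (-3.19 with Xist, -1.54 without). Of 5 other Gja1 probe sets 4 differed by -2.25 to -2.34 and 1 was detected in no cell.

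Igfbp4, a binding protein of insulin-like growth factors, was lower by a difference of -2.86 (-3.81 with Xist, -2.06 without) and Prps1, an X-linked enzyme of nucleotide synthesis, of -2.71. Prps1 was at 8.80 to 10.64 (median 9.95) in stella-negative cells and at 6.13 to 10.74 (median 6.21) in stella-positive cells, of which replicate 2 was the highest. Vcan, the matrix proteoglycan versican, was detected in 0 of 8 and 7 of 9 cells and was at least 1.71-fold lower. Its difference of -2.35 was -0.41 with the mean of probe sets. Cnot6, an enzyme that shortens poly(A) tails, differed by -2.31, but another of its probe sets, detected in 13 of 17 cells, differed by 0.29.

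Within the cells with Xist, 5 stella-positive stood against 3 stella-negative cells, and 1247 genes (6.85%) were higher and 888 (4.88%) lower. Within the cells without Xist, 3 stood against 6, with 895 (4.92%) higher and 719 (3.95%) lower. These comparisons share no cell. Genes higher in both numbered 254, which is 20.4% of the first list and 28.4% of the other, whereas 6.90% of the genes higher with Xist were lower without. Genes lower in both numbered 129, or 14.5% and 17.9%, and 8.33% of those lower with Xist were higher without. Of the 749 genes higher over all cells 248 passed in both sets of cells, and of the 312 lower genes 114 did. The germ cell list had a median of 1.51 in cells with Xist and 0.87 in cells without, the epithelial list 1.18 and 1.23, and the mesenchymal list -1.66 and -0.79. Sox2 differed by 3.48 in cells with Xist and 1.26 in cells without. The difference between the sets of cells was not tested.

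**Figure D4:**
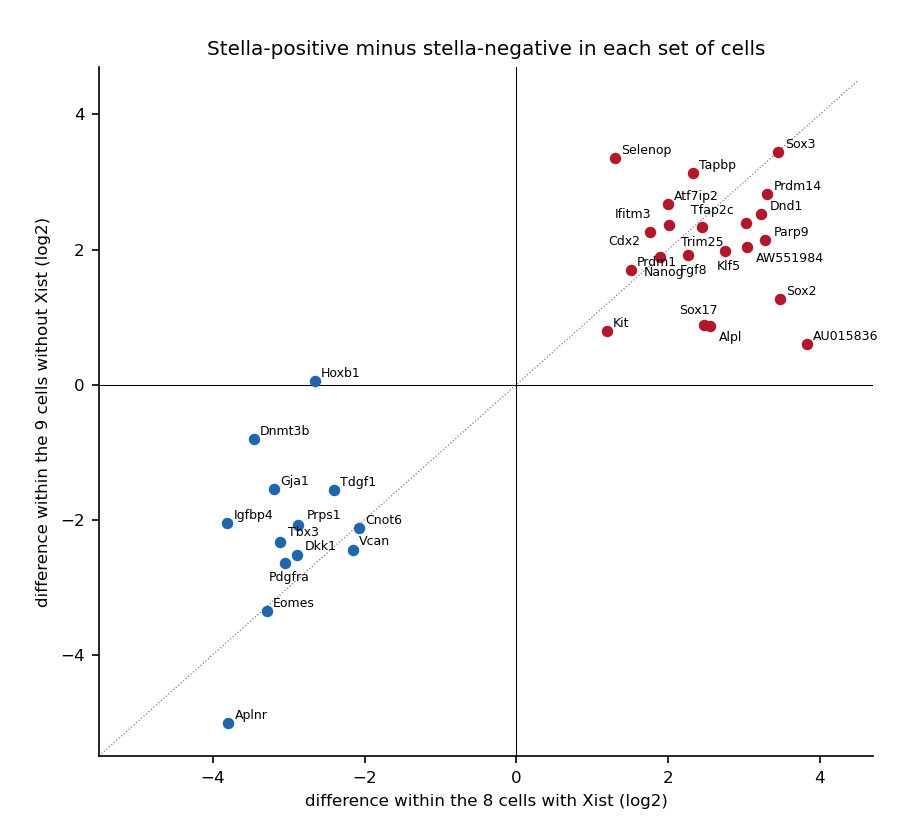
Difference stella-positive minus stella-negative (log2 units) within the 8 cells with Xist (x axis) and within the 9 cells without Xist (y axis) for the 24 named genes and 10 others; red genes were higher and blue genes lower over all 17 cells, and the dotted line marks equal values. The genes were chosen for their difference over the same 17 cells, which favours equal signs; Hoxb1 lies at -2.66 and 0.06, and Sox2 and AU015836 lie far below the line.

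The same genes were then followed in cells that played no part in the split. E/MB PGCs had been chosen by the study for stella, and Blimp1+ Hoxb1+ cells of that stage for Hoxb1, with no selection on stella in the labels. In the latter Dppa3 was above the threshold in 0 of 4 cells, and neither group shares a cell with the 17. Xist was detected in no E/MB PGC and, of the Blimp1+ Hoxb1+ cells, in replicate 3 alone. Between these groups 946 genes (5.2%) were higher in PGCs and 1004 (5.52%) were lower. These shares are over all 18192 genes, of which 11841 were detected in any of the 17 cells. Genes detected in none may lower them, and no share over detected genes is given beside them. Of the 749 genes higher in stella-positive precursors 221 (29.5%) were also higher in these PGCs and 69 (9.21%) lower. Of the 312 genes lower in stella-positive precursors 84 (26.9%) were also lower in PGCs and 20 (6.41%) higher. Counted from the other side, these are 23.4% of the genes higher in PGCs and 8.37% of those lower. A group of 80 genes (10.7% of the 749) was higher and of 40 genes (12.8% of the 312) lower in all comparisons: with Xist, without it, over all 17 cells and in the PGCs. The cells with and without Xist make up the 17, so passing these together is partly built in. Of the genes named above, this group held Sox3, Prdm14, Tfap2c, Dnd1, Sox2, Nanog, Klf5, Cdh1, Esrp1 and Cldn7, among others, on the higher side. On the lower side it held Aplnr, Tbx3, Pdgfra, Gja1, Cdh2, Cdh11, Mixl1, Smad1 and Myc, among others. The epithelial list as a whole had a median of -0.22 between these groups, with Krt8 at -1.81, Krt19 at -0.73, Cldn6 at -0.49 and Dsp at -0.43. The 4 genes taken to follow sets of arrays had a median difference of -2.39 between these groups. An array set, which no label names, and cell type therefore cannot be told apart here. The part of array sets in the shared genes was not tested.

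Some genes differed between the precursors but not, or in the opposite direction, between these groups. Krt18 was higher by 2.51 in stella-positive precursors and had a difference of -1.53 between PGCs and Blimp1+ Hoxb1+ cells, Bmp4 1.45 and -1.80, and Plac1 1.19 and -2.65. Eomes (-0.63), Dkk1 (0.01), Tapbp (0.19) and Cdx2 (0.05) differed by less than 1 log2 unit there. Eomes averaged 6.13 ± 0.00 (n = 8) in PGCs and 6.76 in Blimp1+ Hoxb1+ cells, against 10.53 ± 2.12 (n = 9) in stella-negative precursors.

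Some of the named genes are given beside the neighbouring stages, chosen after their values were seen. No E/MS precursor and no E/MB PGC had Xist, so these groups also differ in Xist. Sox3 averaged 7.16 in E/MS precursors, 6.86 in stella-negative cells, 10.73 in stella-positive cells and 10.85 in E/MB PGCs. Prdm14 averaged 6.13, 7.40, 10.66 and 10.84 in the same order, and Tfap2c 7.63, 7.47, 10.75 and 11.56. Gja1 averaged 10.68, 10.04, 7.51 and 6.13, Tdgf1 12.24, 11.02, 8.49 and 6.13, and Mixl1 10.60, 10.47, 8.46 and 6.66. Gja1, Tdgf1 and Mixl1 thus had levels in stella-positive cells that lay between the others. Hoxb1 averaged 6.93 in E/MS precursors, 9.32 in stella-negative cells and 6.13 in E/MB PGCs, so its level was highest in the stella-negative cells of this series of groups.

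The mean of the germ cell list in a cell was 7.62 to 9.34 (median 8.08) in E/MS precursors and 8.12 to 9.77 (median 8.30) in stella-negative cells. It was 9.03 to 10.80 (median 10.45) in stella-positive cells, 10.56 to 10.95 (median 10.81) in E/MB PGCs and 9.10 to 9.31 in the 4 Blimp1+ Hoxb1+ cells. Stella-negative and stella-positive cells overlapped through replicates 1 (9.56) and 21 (9.77) of the former and replicate 3 (9.03) and replicate 2 (9.63) of the latter.

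**Figure D5:**
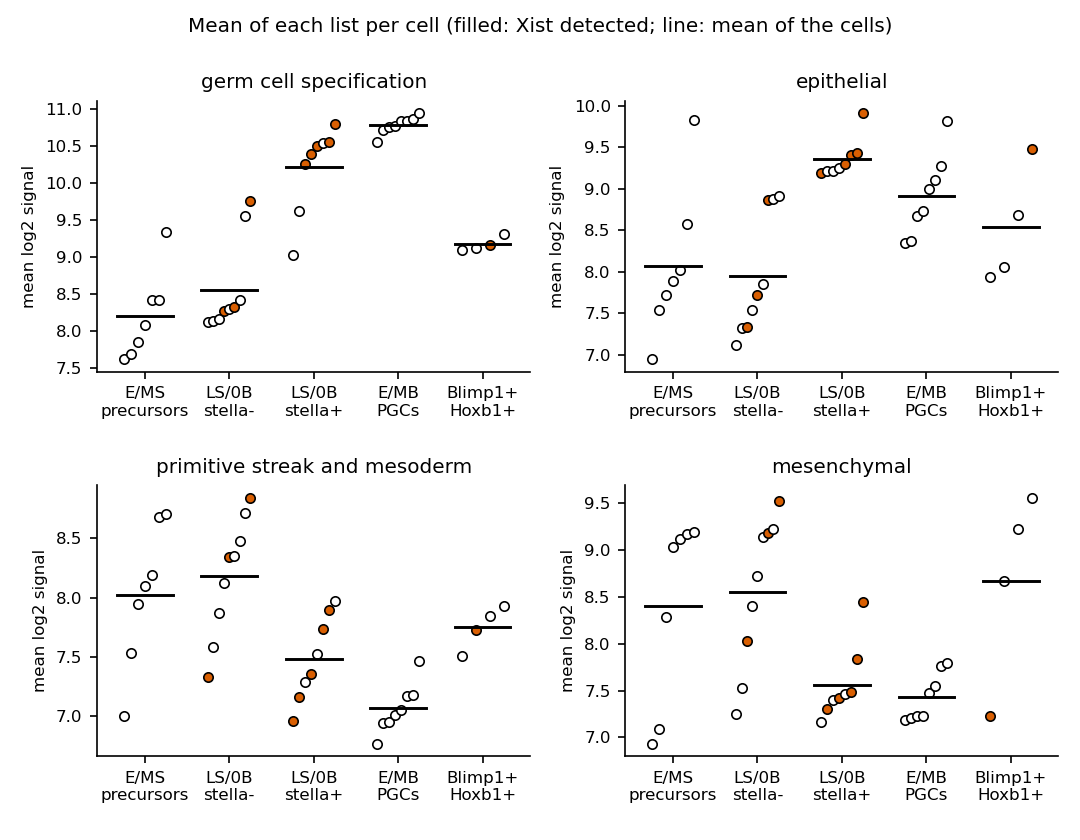
Mean floored log2 signal of 4 gene lists in each cell of E/MS precursors, stella-negative and stella-positive LS/0B precursors, E/MB PGCs and Blimp1+ Hoxb1+ E/MB cells; filled circles are cells with Xist and lines are means over cells. Germ cell means run from 9.03 to 10.80 in stella-positive cells and from 8.12 to 9.77 in stella-negative cells, epithelial means do not overlap between these sets, and streak and mesenchymal means are lower but overlapping in stella-positive cells. The 4 lists are from 23 chosen with earlier results of these data known.

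The cells were not uniform within either set. The counts that follow use genes chosen for their difference between the sets, so they describe cells within a set and not how far the sets are apart. The 5 stella-positive cells without Hoxb1 each had all 12 of the most higher genes, and 0 to 5 of the 12 most lower genes. The 3 with Hoxb1 had 9 (replicate 3), 11 (replicate 16) and 10 (replicate 2) of the higher genes and 7, 5 and 7 of the lower genes. Germ cell list means were 9.03, 10.54 and 9.63 in these 3 cells and 10.26 to 10.80 in the other 5. Streak list means were 7.29 to 7.97 and 6.96 to 7.89, so the 2 kinds of stella-positive cell overlapped there. The 3 cells are also those without Xist, and have replicate numbers of 2, 3 and 16, against 18 to 24 in the other 5. Ppp2cb was detected in each of those 5 and in none of the 3, and among stella-negative cells in replicate 21 alone. The mean of the list that holds Ppp2cb was 6.76 to 7.06 in the 3 and 7.41 to 8.05 in the 5. It was 6.70 to 7.99 in stella-negative cells. Hoxb1, sex, replicate number and Ppp2cb therefore cannot be told apart among stella-positive cells.

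Among stella-negative cells replicate 21 had 12 of the 12 higher genes and 5 of the 12 lower genes. Stella-positive replicate 20 had the same counts. In replicate 21 the Prdm14 signal was 1226, Tfap2c 2371, Dnd1 1516, Sox3 2407 and Ifitm3 4733, each within the range of the stella-positive cells. Other genes lay outside that range. Alpl (36.4), Nanog (222), C77080 (11.1) and Pced1b (184) were below the lowest stella-positive cell (261, 359, 110 and 423). Gja1 (1190) was above the highest (419). Dppa3 in replicate 21 was 25.5, as low as in the other stella-negative cells. Its Kit signal was 36.5, under the detection limit. The other 8 stella-negative cells had 0 to 5 of the higher and 9 to 12 of the lower genes. Replicates 1, 5 and 14 had the most among these, each with 5 of the 12 higher genes detected. Replicate 1 had Tfap2c (1748), Dnd1 (770), Klf5 (873) and Ifitm3 (3608) together with Hoxb1 (418) and Aplnr (2368).

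Dppa3 itself was above the threshold in 8 of 17 LS/0B precursors (47.1%; the exact 95% binomial interval of 23% to 72.2% covers the counting of cells only, not a spread between embryos). It was above it in 2 of 7 E/MS precursors, with a highest signal of 239, and in 4 of 8 wild-type cells of the pre-streak posterior epiblast, chosen for Oct4 and T, with a highest signal of 445.2. In E/MB PGCs it was at 3020 to 4782, so that each of these lay above the highest precursor. It was above the threshold in 0 of 20 Blimp1 (-/-) cells of the LS/0B stage, where the highest signal was 110 and the interval of the same kind reaches 16.8%. In Blimp1 (-/-) cells of the E/MB stage it was above the threshold in 4 of 12, with a highest signal of 313.8. In the 20 Blimp1 (-/-) LS/0B cells Prdm14 was detected in 11 of 20, Sox2 in 7, Tfap2c in 7, Dnd1 in 7 and Sox3 in 7, and the germ cell list mean ran from 7.69 to 10.05.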

How the data were processed

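The deposited values are linear array intensities. The submitters' processing notes name MAS5, with version and scaling target not given in the sources used here. Each array held PCR-amplified cDNA of 1 cell, per the labels' protocols, so a transcript with a low signal may have been present. Of 45101 probe sets, 64 are controls, 34945 carry 1 gene symbol, 932 carry several and 9160 are unnamed here. The brightest probe set stood for each of 18193 genes. The floor was the median, over all arrays, of the 90th percentile of 126 background probe sets (olfactory, vomeronasal, taste receptor and keratin-associated genes), and the detection limit was their 95th percentile on each array. A gene was called higher or lower at a difference of 1 log2 unit between the mean log2 signals of the sets. In the 17 cells 15.5% of values stood at the lowest value in the file, 0 values were missing, and 0 pairs of arrays were identical. "At least" folds compare the mean of the set that had the transcript with each undetected cell held at its detection limit.

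The named genes are the 12 with the largest difference in each direction among genes that 75% or more of the higher set had, up to 10 in each direction whose sets did not overlap, the marker genes of the split, and members of 23 lists of 263 symbols, of which 246 were measured. The members and lists were chosen with earlier results of these data known. Alternatives were no floor, another floor, the mean of probe sets, quantile normalization, scaling, medians, another Dppa3 threshold, cells with or without Xist, replicates 14 to 24, and leaving out each cell; the list without Prdm1 and Ifitm3 was added after the data were seen. The scripts were checked on simulated data. Python 3.11.15, pandas 2.3.3, numpy 2.4.6 and scipy 1.17.1 were used. The number of arrays, amplification from 1 cell and the unnamed embryos limit the precision.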

Additional observations from a re-analysis of the deposited data

Results flagged for a closer look

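In 19 of 90 sets of cells, 1 cell lay far from the others by Dixon's criterion, which chance meets in about 1 set in 20. Many of these genes sit at the floor in most cells, where any single higher value is far from the rest. All values are log2 signals.

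Replicate 21 was that cell in 8 sets of stella-negative cells. It had Sox3 at 11.23 (the next cell was at 7.59), Sox2 at 9.78 (next 6.13), AW551984 at 9.70 (next 6.68) and AU015836 at 9.55 (next 6.17). It had the lowest Aplnr, 6.13 (next 9.92), Tdgf1, 6.13 (next 10.10), Hoxb1, 6.13 (next 8.71), and Dnmt3b, 9.92 (next 11.07).

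Among stella-positive cells, replicate 3 had the lowest Tfap2c, 6.13 (next 10.40), and Atf7ip2, 7.07 (next 9.65), and the highest mean of the Hox list, 6.85 (next 6.50). Replicate 16 had the highest Pdgfra, 7.10, and Dkk1, 8.06, and replicate 2 the highest Tbx3, 10.01, each with the next cell at 6.13. Replicate 22 had the lowest C77080, 6.79 (next 8.10), and replicate 18 the highest epithelial list mean, 9.91 (next 9.43).

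Among the other stella-negative cells, replicate 7 had the highest C77080, 6.34 (next 6.13), replicate 6 the highest Kit, 6.98 (next 6.51), and replicate 5 the lowest Mgrn1, 6.30 (next 7.63).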

How the results depend on the processing

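The count of 749 higher genes was 2227 with no floor, 461 with the floor at the 95th percentile of background, 378 with the mean of probe sets, 1137 with medians over cells, 1165 with a Dppa3 threshold of 1000 and 1247 in cells with Xist. The count of 312 lower genes was 1568, 188, 147 and 626 under the first 4 of these, and 888 in cells with Xist, 719 in cells without and 822 in replicates 14 to 24. The germ cell median of 1.72 was 0.87 in cells without Xist and 0.98 without Prdm1 and Ifitm3. The pluripotency median of 0.12 was 0.72 with no floor and 0.97 over genes detected in at least 50% of cells, where the Hox median was -0.52. The mesenchymal median of -0.79 was -2.44 with no floor, -1.66 in cells with Xist and -1.75 in replicates 14 to 24. The share of higher genes also higher in E/MB PGCs, 29.5%, was 23.2% with a threshold of 1000, 24.3% with Xist, 17.8% without and 24.5% in replicates 14 to 24. The share of lower genes also lower there, 26.9%, was 38.5% with no floor, 33.2% with medians and 17.5% without Xist. The cause of these changes was not tested.

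Leaving out 1 cell at a time gave 681 to 899 higher and 288 to 388 lower genes. It gave medians of 1.52 to 1.99 for the germ cell list, 0.00 to 0.14 for pluripotency, -0.54 to -0.20 for streak and mesoderm (-0.20 without replicate 8), -1.14 to -0.56 for mesenchymal and 0.00 for Hox genes. The shares were 26.7% to 28.9% and 26.2% to 29.9%. Over 38 genes run under the alternatives (the genes named by size, the markers of the split and 10 others), Hoxb1 changed direction, in cells without Xist (0.0565). Car4 (1.01), Tet1 (-0.54) and Sp5 (0.45), outside these 38, also had the opposite sign there. No paired analysis was possible because both sets come from 1 labelled group.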
